A study of Homo sapiens with 60 samples.

Results

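The 10 genes LUC7L, SEC31B, PABPC1L, OSBPL7, TNFRSF25, MTMR11, IFFO1, NR6A1, GABRE and SPEG were selected on measured values: each was higher than vehicle at the low dose of all 6 plant preparations that had replicate libraries. They are 10 of the 60675 genes in the deposited count table, and all 10 were among the 17516 genes that passed the filter on low counts. Across the extracts at the low dose they lay above vehicle by a median log2 fold change of 0.51. At the medium dose that median was 0.43 and at the high dose 0.30. Without Cinnamomi Cortex the medians were 0.52, 0.44 and 0.40 at the low, medium and high dose. The low-dose value is the one that the choice of genes used. At the high dose of Cinnamomi Cortex, 8 of the 10 were called lower than at its medium dose, where 13.0% of all genes were called lower and 23.1% in either direction, and 6 of the 8 had group means below the vehicle mean.

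The cells were SW1783, an established human astrocytoma line, and RNA was taken after 24 h. The treated groups received a water extract of Cnidii Rhizoma, Rehmanniae Radix Preparata, Cinnamomi Cortex, Astragali Radix, Angelicae Gigantis Radix or Paeoniae Radix, or of either multi-herb formula, Sagunja-tang or Samul-tang, at 20, 100 and 500 µg/mL (low, medium and high dose), and the reference was vehicle, 0.1% DMSO by the sample labels and another level by the series text. The 60 libraries form 25 groups. There were 3 libraries at each dose of Cnidii Rhizoma, Rehmanniae Radix Preparata, Cinnamomi Cortex, Astragali Radix and Sagunja-tang, 2 at each dose of Samul-tang, 1 at each dose of Angelicae Gigantis Radix and Paeoniae Radix, and 3 of vehicle. Nothing in the labels tells whether replicates came from separate cultures; the spread behind each p-value is that between libraries and may be technical. A DMSO level is labelled for vehicle only. All sample titles, vehicle included, carry the same batch label, B. The sample codes place the vehicle libraries in a set of their own, so set, solvent and treatment cannot be told apart in any comparison with vehicle.

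The members act at different places in the cell. LUC7L belongs to a family of proteins that bind the U1 small nuclear ribonucleoprotein and influence the choice of 5′ splice sites, and PABPC1L is a cytoplasmic poly(A)-binding protein best known from oocytes. SEC31B is a subunit of the outer COPII coat that buds vesicles from the endoplasmic reticulum, OSBPL7 is a lipid-binding protein of the oxysterol-binding family, and MTMR11 is a myotubularin-family protein without phosphatase activity. TNFRSF25 is a death-domain receptor for the ligand TNFSF15, known mainly from T cells, and GABRE is the epsilon subunit of the GABA-A chloride channel. NR6A1 is an orphan nuclear receptor that represses germ cell and pluripotency genes in the mouse embryo, IFFO1 is an intermediate filament family protein of the nucleus, and SPEG is a kinase of the titin and myosin light chain kinase family known from striated muscle.

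Total expected counts ran from 20604792 to 29609799 per library. The 100 most abundant genes took 22.5% to 24.1% of counts in the Cinnamomi Cortex high libraries, 22.6% to 26.6% in the other extract libraries and 24.2% to 24.5% in vehicle. The scaling factors (TMM) were 0.994 to 1.01, 0.934 to 1.03 and 0.965 to 0.973 in these groups, and mitochondrial genes took 5.34% to 7.28%, 5.98% to 9.96% and 7.13% to 7.43% of counts. Astrocyte markers were uneven: VIM was at 4688 CPM (counts scaled to the library total, which for the members' values below was adjusted by TMM) or more in every library, whereas GFAP did not exceed 0.261 CPM and AQP4 0.0929 CPM, and 5 of the 10 markers failed the count filter. GJA1 ran from 151 to 288 CPM, SOX9 from 40.8 to 88.9 CPM, SLC1A3 from 10.9 to 28.9 CPM and NES from 4.2 to 9.4 CPM. Replicate 1 of Sagunja-tang low stood apart from its replicates. So did replicate 1 of Sagunja-tang medium, which is part of the tested comparison of high with medium dose. Mitochondrial genes took 9.96% of its counts, against 5.98% and 7.19% in its replicates. Its 100 most abundant genes took 26.6%, against 22.6% and 23.6%, and its scaling factor was 0.950, against 1.01 and 1.00. Single members had 35 to 1408 counts in a library. SEC31B (35 to 172) and NR6A1 (39 to 108) had the fewest counts, and their values carry the widest errors.

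**Figure D1:**
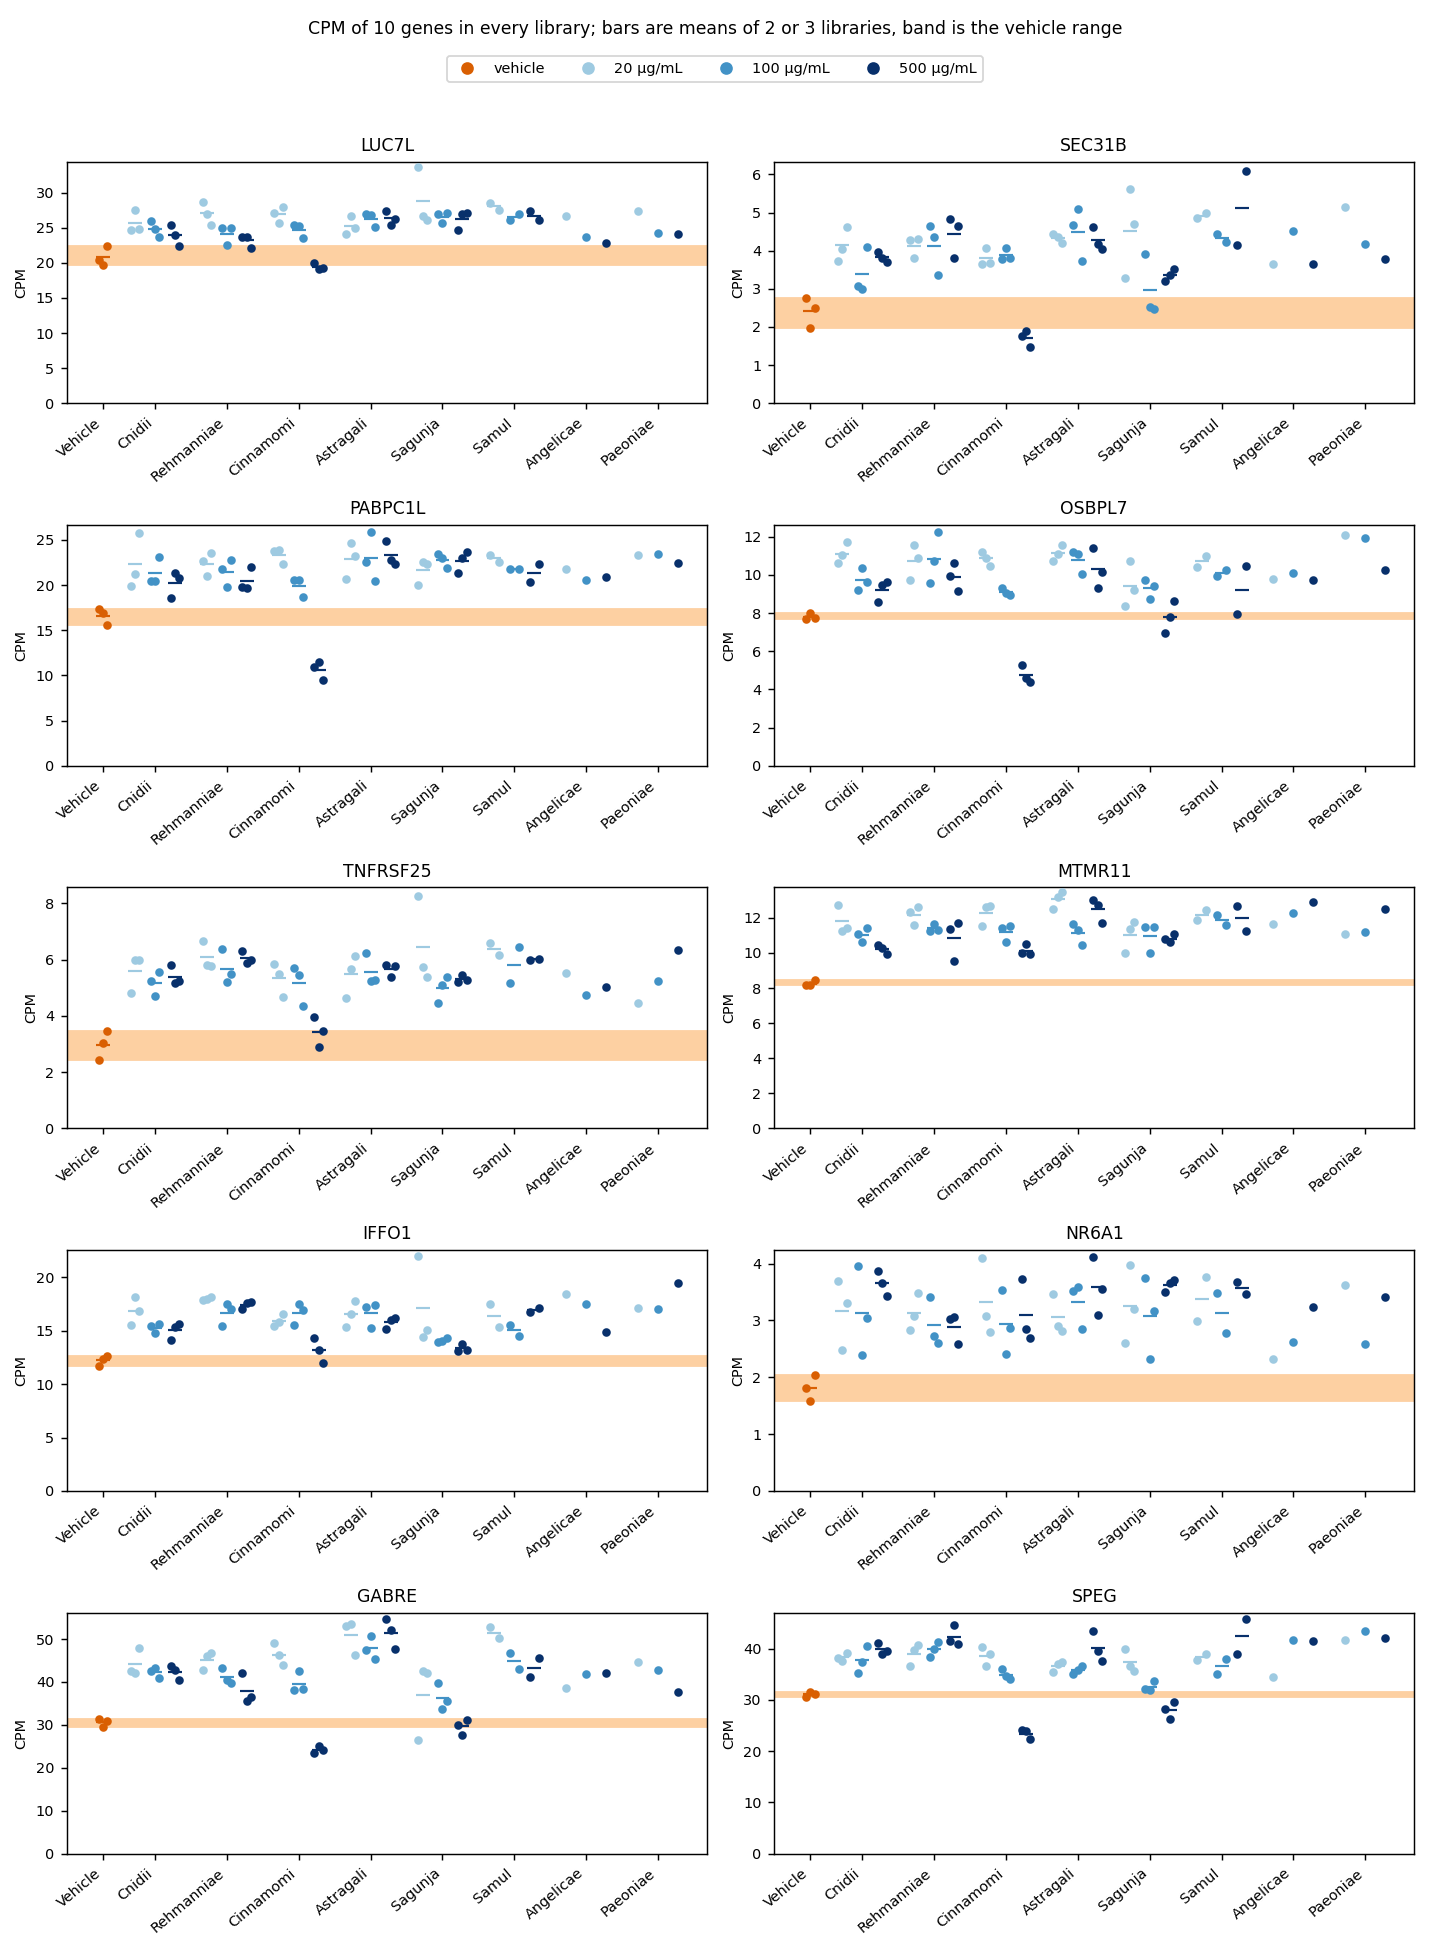
CPM (y axis, from 0) of each gene in each of the 60 libraries. Points are libraries, short bars are means of groups with 2 or 3 libraries, the x axis gives vehicle and then each extract with doses of 20, 100 and 500 µg/mL from left to right, and the orange band spans the 3 vehicle libraries. Most extract points lie above the band at every dose, and the Cinnamomi Cortex high points lie in or under it for 6 of the 10 genes.

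At the low dose the differences from vehicle are what selected the genes, so they are described without a test. Over all genes, 18.7% had fitted means above vehicle at the low dose of all 6 replicated extracts, and 0.200% (35 of 17516) were also called higher in all 6 at an adjusted p under 0.05; the 10 members are among those 35. TNFRSF25 had the largest mean log2 fold change at the low dose, 0.99 ± 0.12 (SE of the fit), followed by NR6A1 (0.84 ± 0.16) and SEC31B (0.84 ± 0.14). GABRE (0.59 ± 0.08), MTMR11 (0.56 ± 0.06), IFFO1 (0.47 ± 0.07), OSBPL7 (0.46 ± 0.08), PABPC1L (0.45 ± 0.07) and LUC7L (0.38 ± 0.06) came next, and SPEG had the smallest difference (0.30 ± 0.05). The order is not sharp, since TNFRSF25, NR6A1 and SEC31B lie within an SE or so of each other. Single comparisons ran from 0.25 (SPEG, Astragali Radix) to 1.12 (TNFRSF25, Sagunja-tang). Without Sagunja-tang low replicate 1 that last value was 0.90 ± 0.15, and TNFRSF25 in Samul-tang, at 1.11 ± 0.16, was the highest TNFRSF25 comparison. Leaving that library out also gave 0.26 in place of 0.49 for IFFO1, 0.47 in place of 0.29 for GABRE and 0.22, the lowest value of all, in place of 0.28 for SPEG in Sagunja-tang low.

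The vehicle libraries stood under nearly every low-dose library. LUC7L was at 24.0, 26.7 and 33.6 CPM (lowest, median and highest of 19 low-dose libraries over the 8 preparations), and at 20.4, 19.7 and 22.4 CPM in vehicle. MTMR11 was at 9.99, 11.9 and 13.5 CPM at the low dose, and at 8.15, 8.16 and 8.45 CPM in vehicle. TNFRSF25 was at 4.47, 5.78 and 8.27 CPM, and at 2.42, 3.03 and 3.47 CPM in vehicle. In these 3 genes the groups did not overlap. NR6A1 had 2.33, 3.09 and 4.11 CPM at the low dose, and 1.81, 1.58 and 2.04 CPM in vehicle. All 3 vehicle libraries were under every low-dose library for 9 of the 10 members, against 1.08% of all genes. GABRE was the exception through 1 library, Sagunja-tang low replicate 1, at 26.4 CPM against 29.6 to 31.3 CPM in vehicle. Without that library all 10 members were separated, against 1.89% of genes. Both counts follow largely from the choice of the genes at this dose, so they carry no weight of their own.

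The medium- and high-dose libraries took no part in the choice of genes, but the vehicle libraries are the same ones. Genes chosen as higher than those vehicle libraries at the low dose will tend to lie above them at other doses too. The counts below are therefore descriptions, and the shares of all genes beside them are not for genes chosen in this way. At the medium dose all 60 fitted differences (10 genes in 6 extracts) were above vehicle, from 0.08 (SPEG, Sagunja-tang) to 0.98 (TNFRSF25, Samul-tang). All vehicle libraries lay under every medium-dose library for 9 members, against 1.27% of genes. SEC31B was the exception, since 2 Sagunja-tang medium libraries, at 2.53 and 2.47 CPM, fell inside the vehicle range of 1.98 to 2.77 CPM. At the high dose 52 of 60 differences were above vehicle. The vehicle libraries lay under every high-dose library for MTMR11 and NR6A1 only, against 0.548% of genes, and the same 2 genes were separated over all 57 extract libraries, against 0.0742% of genes. Leaving out the Cinnamomi Cortex high libraries, 6 members were separated at the high dose, against 1.86% of genes: SEC31B, PABPC1L, TNFRSF25, MTMR11, IFFO1 and NR6A1.

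Angelicae Gigantis Radix and Paeoniae Radix had 1 library a dose and took no part in the choice of genes, apart from the shared vehicle. All 60 values of the members in those 6 libraries were above the highest vehicle library, whereas 5.57% of all genes had all 6 libraries there. SPEG, for example, was at 30.5 to 31.6 CPM in vehicle, at 34.6, 41.6 and 41.4 CPM with low, medium and high Angelicae Gigantis Radix and at 41.8, 43.4 and 42.1 CPM with low, medium and high Paeoniae Radix. In the same order MTMR11 was at 8.15 to 8.45 CPM in vehicle, at 11.6, 12.3 and 12.9 CPM with Angelicae Gigantis Radix and at 11.1, 11.2 and 12.5 CPM with Paeoniae Radix. There is no replicate to set an error on these values, and the shared vehicle limits this count in the same way.

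**Figure D2:**
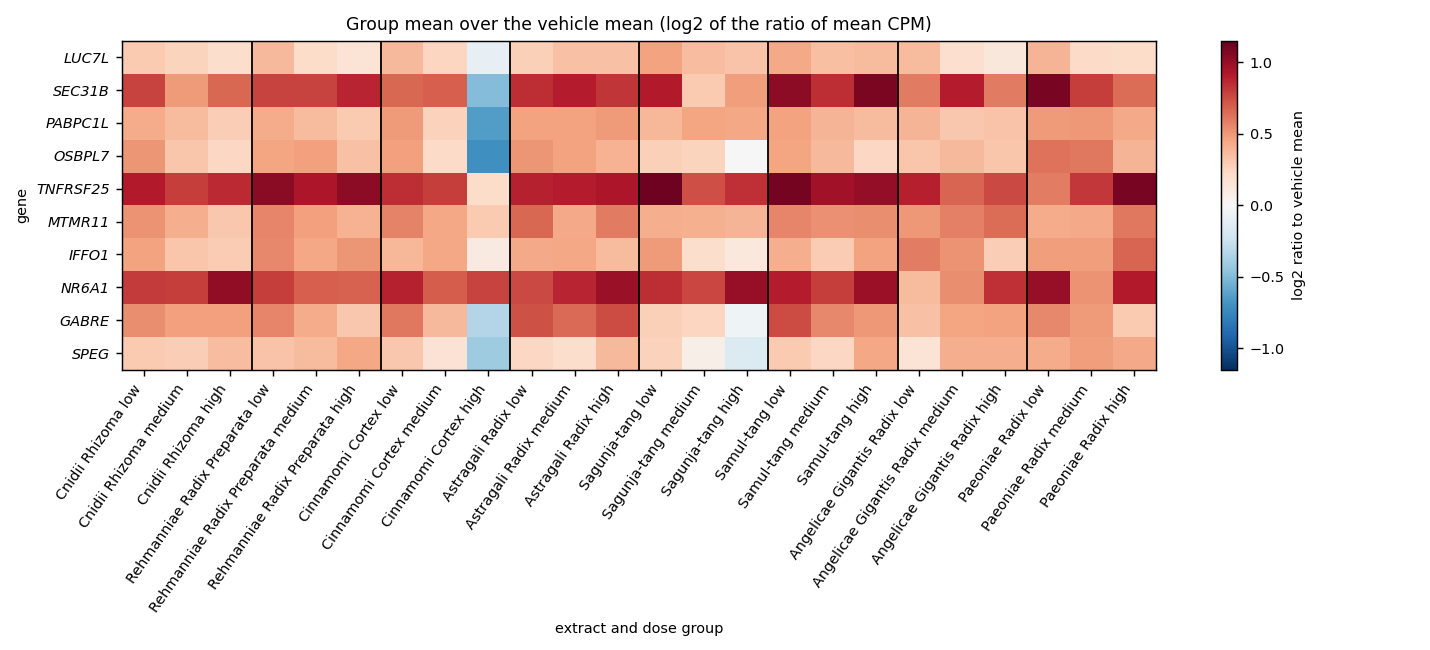
Log2 of the ratio of each group's mean CPM to the vehicle mean (colour, red above and blue below vehicle) for the 10 genes (rows) in the 24 extract and dose groups (columns). All members are red in every group but Cinnamomi Cortex high and Sagunja-tang high, where 6 and 3 members are under the vehicle mean. OSBPL7 in Sagunja-tang high is all but level with vehicle, at a ratio of 0.997, and its fitted log2 fold change was 0.01.

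The dose response was read first as a description, since the low libraries had been used to choose the genes. The mean difference from vehicle was smaller at the medium than at the low dose for all 10 members, by 0.06 to 0.17 log2 units. This carries no weight of its own, since the low-dose values were used in the choice. From low to high, NR6A1 differed by 0.07 ± 0.08 and the other 9 members by -0.11 (SPEG) to -0.36 (OSBPL7). Without Cinnamomi Cortex these differences ran from -0.20 (OSBPL7) to 0.11 (NR6A1). The members' median difference between high and low was -0.16 with all 6 extracts and -0.09 without Cinnamomi Cortex.

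High against medium dose used 34 libraries that the choice did not use, and this comparison was tested with edgeR's quasi-likelihood test over 17237 genes with Benjamini-Hochberg adjustment. Averaged over the 6 extracts, 4 members fell and none rose: OSBPL7 (log2 fold change -0.27 ± 0.04 SE, adjusted p = 5.50e-05), GABRE (-0.18 ± 0.03, 5.80e-05), PABPC1L (-0.18 ± 0.03, 0.000484) and LUC7L (-0.08 ± 0.03, 0.04996). Of all genes, 5.05% were called lower and 3.65% higher. The median over the 10 members was -0.06, and -0.004 over all genes. The LUC7L call was the weakest: leaving out single libraries gave adjusted p values of 0.0369 to 0.122, over the threshold in 25 of 34 cases. NR6A1 had the only positive mean difference, 0.14 ± 0.07 (adjusted p = 0.297). Without Cinnamomi Cortex none of the 10 passed, and 4 of the mean differences changed sign. In this edgeR fit without Cinnamomi Cortex the adjusted p was 0.139 for OSBPL7, 0.276 for GABRE, 0.762 for PABPC1L and 0.774 for LUC7L.

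The change with dose differed between extracts. In an interaction test over the 6 extracts, 8 of 10 members passed, against 11.9% of all genes, and MTMR11 (adjusted p = 0.308) and NR6A1 (0.960) did not. The smallest values were those of SPEG (2.15e-07), PABPC1L (1.03e-06) and GABRE (1.63e-06). Without Cinnamomi Cortex none passed, and SPEG came nearest (adjusted p = 0.0572). The number was 5 when all 54 libraries were fitted together and 5 without 1 Cinnamomi Cortex library (medium replicate 2 or high replicate 3).

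**Figure D3:**
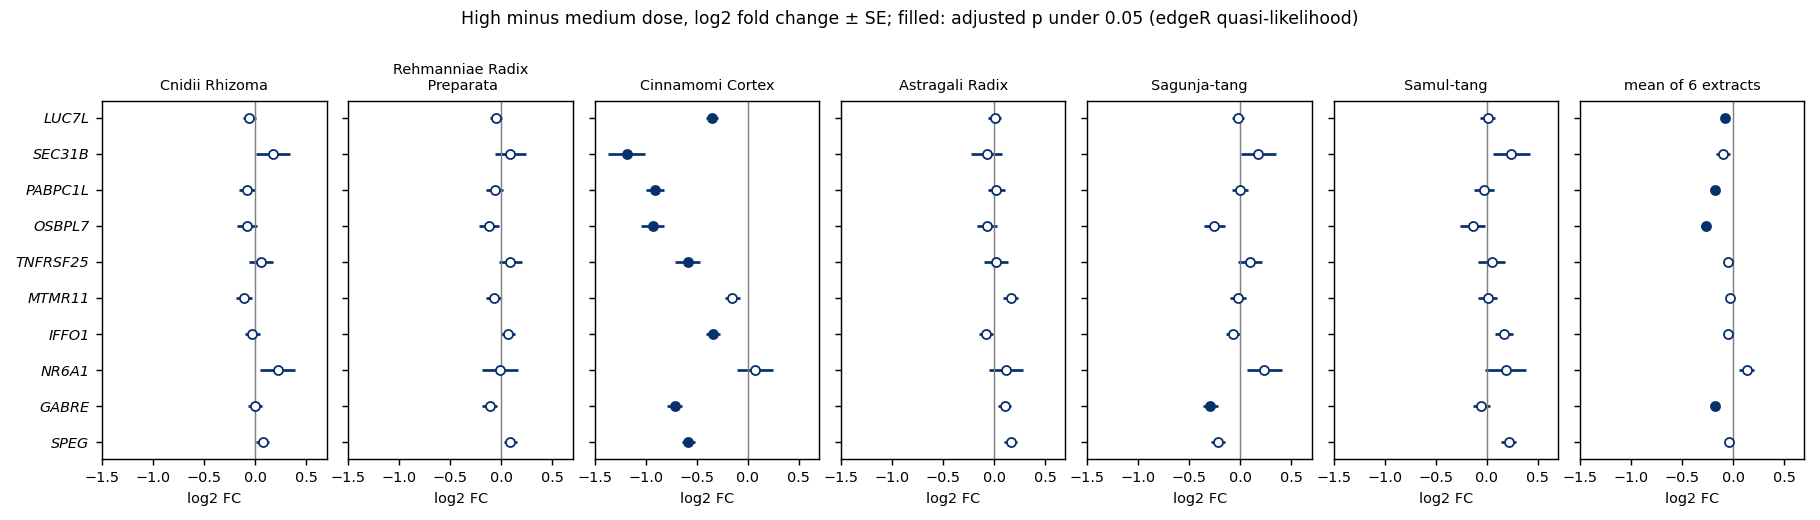
High minus medium dose as log2 fold change ± SE (x axis) for the 10 genes (rows) in each replicated extract and as the mean of the 6 extracts (panels). Filled points passed an adjusted p of 0.05; 8 are filled for Cinnamomi Cortex, 1 for Sagunja-tang and none for the other 4 extracts.

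Most calls came from Cinnamomi Cortex. There 8 members were lower at the high than at the medium dose, against 13.0% of genes called lower and 23.1% in either direction. Sagunja-tang followed with 1 member, GABRE, against 0.830% lower and 2.29% in either direction. None was called with Cnidii Rhizoma (background 0.0870%), Rehmanniae Radix Preparata (0.395%), Astragali Radix (0.151%) or Samul-tang (0.574%). In those 4 extracts the 40 differences ran from -0.14 to 0.24 log2 units, 22 above and 18 below 0, and 3 had an unadjusted p under 0.05.

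Among the genes for RNA factors, PABPC1L had 10.98, 11.5 and 9.54 CPM at the high dose of Cinnamomi Cortex, against 20.5, 20.6 and 18.7 CPM at its medium dose (log2 fold change -0.91 ± 0.09, adjusted p = 3.27e-10). The groups did not overlap, and the high-dose libraries also lay under the vehicle libraries, at 17.4, 16.9 and 15.6 CPM. LUC7L was at 20.0, 19.2 and 19.3 CPM at the high dose, against 25.4, 25.3 and 23.5 CPM at the medium dose (-0.35 ± 0.06, adjusted p = 3.86e-05). Its high-dose values fell within or just under the vehicle range of 19.7 to 22.4 CPM. Leaving out any 1 of the 34 libraries kept both calls.

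Among the genes for membrane traffic and lipid transfer, SEC31B showed the largest fall. It had 1.77, 1.89 and 1.47 CPM at the high dose, against 3.79, 4.08 and 3.82 CPM at the medium dose (-1.19 ± 0.18, adjusted p = 4.19e-06), and 2.77, 1.98 and 2.49 CPM in vehicle. OSBPL7 was at 5.30, 4.62 and 4.41 CPM, against 9.31, 9.05 and 8.97 CPM at the medium dose (-0.93 ± 0.11, adjusted p = 4.92e-08). Every high-dose OSBPL7 library was under the vehicle libraries, at 7.69, 7.998 and 7.76 CPM. MTMR11 did not pass, with 10.0, 10.5 and 9.91 CPM against 11.5, 10.6 and 11.5 CPM at the medium dose (-0.15 ± 0.08, adjusted p = 0.169). It remained above vehicle (8.15 to 8.45 CPM) in all of them.

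Of the receptor genes, GABRE was at 23.4, 25.2 and 24.0 CPM at the high dose of Cinnamomi Cortex, against 38.1, 42.6 and 38.3 CPM at the medium dose (-0.72 ± 0.07, adjusted p = 1.46e-09). The vehicle libraries, at 31.3, 29.6 and 30.8 CPM, lay between them. TNFRSF25 was at 3.95, 2.90 and 3.44 CPM, against 5.70, 5.46 and 4.35 CPM (-0.59 ± 0.12, adjusted p = 0.000424), and the high-dose values overlapped the vehicle range of 2.42 to 3.47 CPM. NR6A1 was at 3.72, 2.86 and 2.69 CPM at the high dose, against 3.53, 2.41 and 2.86 CPM (0.07 ± 0.17, adjusted p = 0.815). All NR6A1 values were above the vehicle libraries at 1.58 to 2.04 CPM. SPEG was at 24.0, 23.9 and 22.4 CPM, against 36.1, 34.6 and 34.1 CPM (-0.58 ± 0.07, adjusted p = 1.93e-08), with no overlap, and vehicle was at 30.5, 31.6 and 31.2 CPM. IFFO1 was at 14.3, 13.2 and 11.97 CPM, against 15.5, 17.5 and 17.0 CPM (-0.34 ± 0.07, adjusted p = 0.000341), and 1 high-dose library fell in the vehicle range of 11.7 to 12.7 CPM.

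In Sagunja-tang, GABRE was at 30.1, 27.7 and 31.2 CPM at the high dose, against 39.7, 33.8 and 35.6 CPM at the medium dose (-0.29 ± 0.07, adjusted p = 0.0169). The high-dose libraries lay around the vehicle range of 29.6 to 31.3 CPM. Leaving out high replicate 1, medium replicate 1 or high replicate 2 ended this call, with adjusted p values of 0.0525, 0.203 and 0.132. Medium replicate 1 is the library that stood apart from its replicates, and without it the difference was -0.23. Fitting all 54 libraries together also ended the call (adjusted p = 0.219). SPEG was at 28.2, 26.2 and 29.5 CPM, against 32.1, 31.8 and 33.7 CPM (-0.22 ± 0.07, adjusted p = 0.0798). All 3 high-dose libraries were under the vehicle libraries, and the adjusted p was 0.0470 with the replicate number as a block. OSBPL7 was at 6.95, 7.79 and 8.63 CPM, against 9.74, 8.76 and 9.43 CPM (-0.26 ± 0.10, adjusted p = 0.267). The ranges did not overlap.

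GABRE and SPEG, which fell in Cinnamomi Cortex, had other values in Astragali Radix and Samul-tang, where no member was called. In Astragali Radix, GABRE was at 53.0, 53.4 and 46.2 CPM at the low dose, 47.4, 50.8 and 45.4 CPM at the medium dose and 54.6, 52.0 and 47.6 CPM at the high dose. SPEG there was at 35.5, 37.0 and 37.4 CPM at the low dose, 34.98, 35.9 and 36.6 CPM at the medium dose and 43.4, 39.6 and 37.6 CPM at the high dose. In Samul-tang SPEG had 37.8 and 38.9 CPM at the low dose, 35.1 and 38.0 CPM at the medium dose and 39.0 and 45.9 CPM at the high dose. The high-dose SPEG libraries were above the medium-dose ones in both extracts, at edgeR's adjusted p of 0.456 in Astragali Radix (0.17 ± 0.06) and 0.379 in Samul-tang (0.21 ± 0.08). Over all extract libraries NR6A1 had medians of 3.09, 2.86 and 3.47 CPM at the low, medium and high dose, and MTMR11 medians of 11.9, 11.4 and 11.1 CPM. The ranges of these doses overlapped for both genes.

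The extracts also differed in level over the medium and high doses. Across the 6 extracts 9 of 10 members passed, NR6A1 being the exception (adjusted p = 0.353), but 55.1% of all genes did so too, and the members' count is to be read against that share. The 6 extracts carry 3 set codes, 2 extracts to a code, so extract and set are partly confounded here. Compared only within their set code, 9 of 10 passed, against 36.1% of all genes. Cinnamomi Cortex entered both counts. Without it 6 of 10 passed, against 6851 of the 17237 genes. With the medium dose alone 3 of the 10 passed, IFFO1, GABRE and SPEG, against 11.5% of all genes. Astragali Radix had the highest GABRE values of the medium groups, at 47.4, 50.8 and 45.4 CPM, and Sagunja-tang the lowest, at 39.7, 33.8 and 35.6 CPM.

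Over the 25 groups, vehicle had the lowest mean for TNFRSF25 (2.97 CPM), MTMR11 (8.25 CPM), IFFO1 (12.3 CPM) and NR6A1 (1.81 CPM), and the second lowest for LUC7L (20.8 CPM), SEC31B (2.41 CPM) and PABPC1L (16.6 CPM), after Cinnamomi Cortex high (19.5, 1.71 and 10.7 CPM). For OSBPL7, GABRE and SPEG it was in the third place, after Cinnamomi Cortex high and Sagunja-tang high. The highest mean belonged to Sagunja-tang low for LUC7L (28.8 CPM) and TNFRSF25 (6.46 CPM), but without its replicate 1 (33.6 and 8.27 CPM) these means were 26.4 and 5.55 CPM, and Samul-tang low was highest, at 28.1 and 6.36 CPM. It belonged to Paeoniae Radix low for SEC31B (5.14 CPM), or to Sagunja-tang low without replicate 1 (5.16 CPM), to Astragali Radix low for MTMR11 (13.1 CPM), to Samul-tang low for GABRE (51.5 CPM) and to Cnidii Rhizoma high for NR6A1 (3.65 CPM). The other highest values were single libraries of Paeoniae Radix. They were OSBPL7 at the low dose (12.1 CPM), PABPC1L (23.5 CPM) and SPEG (43.4 CPM) at the medium dose, and IFFO1 at the high dose (19.5 CPM). Over the 10 members the median ratio of the group mean to the vehicle mean was 0.863 with Cinnamomi Cortex high, and 1.253 to 1.504 in every other group. The median ratio over all genes was between 0.993 and 1.01 in all 24 groups.

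The promoters shown are those of the 4 members with the largest falls from the medium to the high dose of Cinnamomi Cortex, and of NR6A1. They set genes that fell in that comparison beside one that did not. RefSeq (GRCh38.p14) gives a promoter of 300 bases, from 250 before to 50 after the start, for 9 of the 10 members and none for IFFO1. Those shown are SEC31B at chr10:100519812-100520111 (minus strand), OSBPL7 at chr17:47821745-47822044 (minus), PABPC1L at chr20:44909810-44910109 (plus), GABRE at chrX:151974627-151974926 (minus) and NR6A1 at chr9:124771262-124771561 (minus), each read 5′ to 3′ along its gene. Capitals mark GC boxes (GGGCGG or, on the other strand, CCGCCC), which SEC31B, OSBPL7 and NR6A1 lack, and the cAMP response element TGACGTCA in NR6A1.
SEC31B: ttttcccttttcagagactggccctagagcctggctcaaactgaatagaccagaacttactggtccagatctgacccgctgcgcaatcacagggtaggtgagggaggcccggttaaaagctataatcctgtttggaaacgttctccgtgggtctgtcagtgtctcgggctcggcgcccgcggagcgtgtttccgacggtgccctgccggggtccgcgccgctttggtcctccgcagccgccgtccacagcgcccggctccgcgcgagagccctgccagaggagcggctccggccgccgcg
OSBPL7: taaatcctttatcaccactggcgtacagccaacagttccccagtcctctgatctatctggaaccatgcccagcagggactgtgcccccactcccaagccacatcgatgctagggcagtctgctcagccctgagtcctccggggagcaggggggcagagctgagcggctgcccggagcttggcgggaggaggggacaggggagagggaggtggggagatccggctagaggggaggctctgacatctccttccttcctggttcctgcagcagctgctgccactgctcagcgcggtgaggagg
PABPC1L: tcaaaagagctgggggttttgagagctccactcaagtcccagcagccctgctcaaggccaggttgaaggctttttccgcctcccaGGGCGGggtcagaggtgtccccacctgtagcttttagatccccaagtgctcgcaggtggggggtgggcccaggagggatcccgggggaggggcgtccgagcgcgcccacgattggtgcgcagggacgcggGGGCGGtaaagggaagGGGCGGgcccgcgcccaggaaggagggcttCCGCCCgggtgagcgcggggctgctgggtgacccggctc
GABRE: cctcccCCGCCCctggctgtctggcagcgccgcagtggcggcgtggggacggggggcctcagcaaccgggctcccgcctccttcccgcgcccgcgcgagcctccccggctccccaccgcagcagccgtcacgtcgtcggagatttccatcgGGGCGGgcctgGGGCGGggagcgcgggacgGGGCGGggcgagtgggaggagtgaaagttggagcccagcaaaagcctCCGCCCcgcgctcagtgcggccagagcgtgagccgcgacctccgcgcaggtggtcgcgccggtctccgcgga
NR6A1: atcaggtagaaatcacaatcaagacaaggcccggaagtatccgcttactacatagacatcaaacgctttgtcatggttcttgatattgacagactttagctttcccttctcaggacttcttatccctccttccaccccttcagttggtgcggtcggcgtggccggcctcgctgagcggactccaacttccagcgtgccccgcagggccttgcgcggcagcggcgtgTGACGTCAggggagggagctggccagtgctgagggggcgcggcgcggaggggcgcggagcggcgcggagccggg

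No searched motif was present in all 5. GABRE held 5 GC boxes and PABPC1L 4, but SEC31B, OSBPL7 and NR6A1 held none, whereas 45.0% of all 35116 promoters in the table held at least 1. The cAMP response element was present in NR6A1 and in 1.85% of promoters. Searches on both strands for the E-box CACGTG (7.26% of promoters) and the TATA sequence TATAAA (11.5%) found no match in these 5. The core TGACNNNGC, held by 13.4% of promoters, matched at 2 places in PABPC1L and 1 in NR6A1. CpG counts were 30 in SEC31B, 9 in OSBPL7, 21 in PABPC1L, 41 in GABRE and 26 in NR6A1, against a median of 14. A match is a description of letters and not of binding.

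By position, annotated on GRCh38 (GENCODE 29), the members lie on 9 chromosomes: LUC7L at chr16:188969-229463, SEC31B at chr10:100486642-100519864, OSBPL7 at chr17:47807372-47821834, TNFRSF25 at chr1:6460786-6466195, MTMR11 at chr1:149928651-149936869, IFFO1 at chr12:6538375-6556083, NR6A1 at chr9:124517275-124771310 and GABRE at chrX:151953124-151974680 on the minus strand, and PABPC1L at chr20:44910062-44959035 and SPEG at chr2:219434846-219498287 on the plus strand. Some overlap other genes. SEC31B shares 14237 bases with AL133352.1 on its own strand, which averaged 0.737 CPM over the libraries, so the split of reads between these genes is uncertain. TNFRSF25 shares 104 bases with PLEKHG5 on the same strand. PLEKHG5 averaged 16.2 CPM at the low dose against 13.9 CPM in vehicle, and AL133352.1 0.581 against 0.441 CPM. Both went in the direction of the member they overlap. PABPC1L overlaps TOMM34 on the other strand over 16906 bases, and TOMM34 averaged 84.6 CPM at the low dose against 92.4 CPM in vehicle, the reverse of PABPC1L. Also on the other strand, NR6A1 overlaps MIR181A2HG (mean 0.672 CPM) over 40165 bases. MIR181A2HG averaged 0.675 CPM at the low dose against 0.586 CPM in vehicle. SPEG overlaps AC053503.1 over 16215 bases and IFFO1 overlaps AC006064.1 over 1428 bases, and neither of these antisense genes passed the count filter. The libraries were directional, but no source used here gives the strand setting of the counting. Reads from opposite strands may not have been kept apart.

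Close relatives and the ligand of members were not selected on the low dose. Taken as the mean over the 6 extracts, the low dose differed from vehicle by 0.03 for LUC7L2, 0.25 for LUC7L3, -0.07 for SEC31A, -0.08 for PABPC1 and 0.16 for TNFSF15, on the log2 scale. At the high against the medium dose of Cinnamomi Cortex, edgeR's adjusted p was 0.0755 for SEC31A (-0.13 ± 0.05), 0.00287 for PABPC1 (-0.29 ± 0.07), 3.04e-08 for TNFSF15 (-1.19 ± 0.14) and 5.16e-06 for LUC7L2 (-0.29 ± 0.04). The ligand gene TNFSF15 was lower, as was its receptor gene TNFRSF25; TNFSF15 had 1.92 to 2.39 CPM at the high dose against 4.62 to 5.42 CPM at the medium dose.

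**Figure D4:**
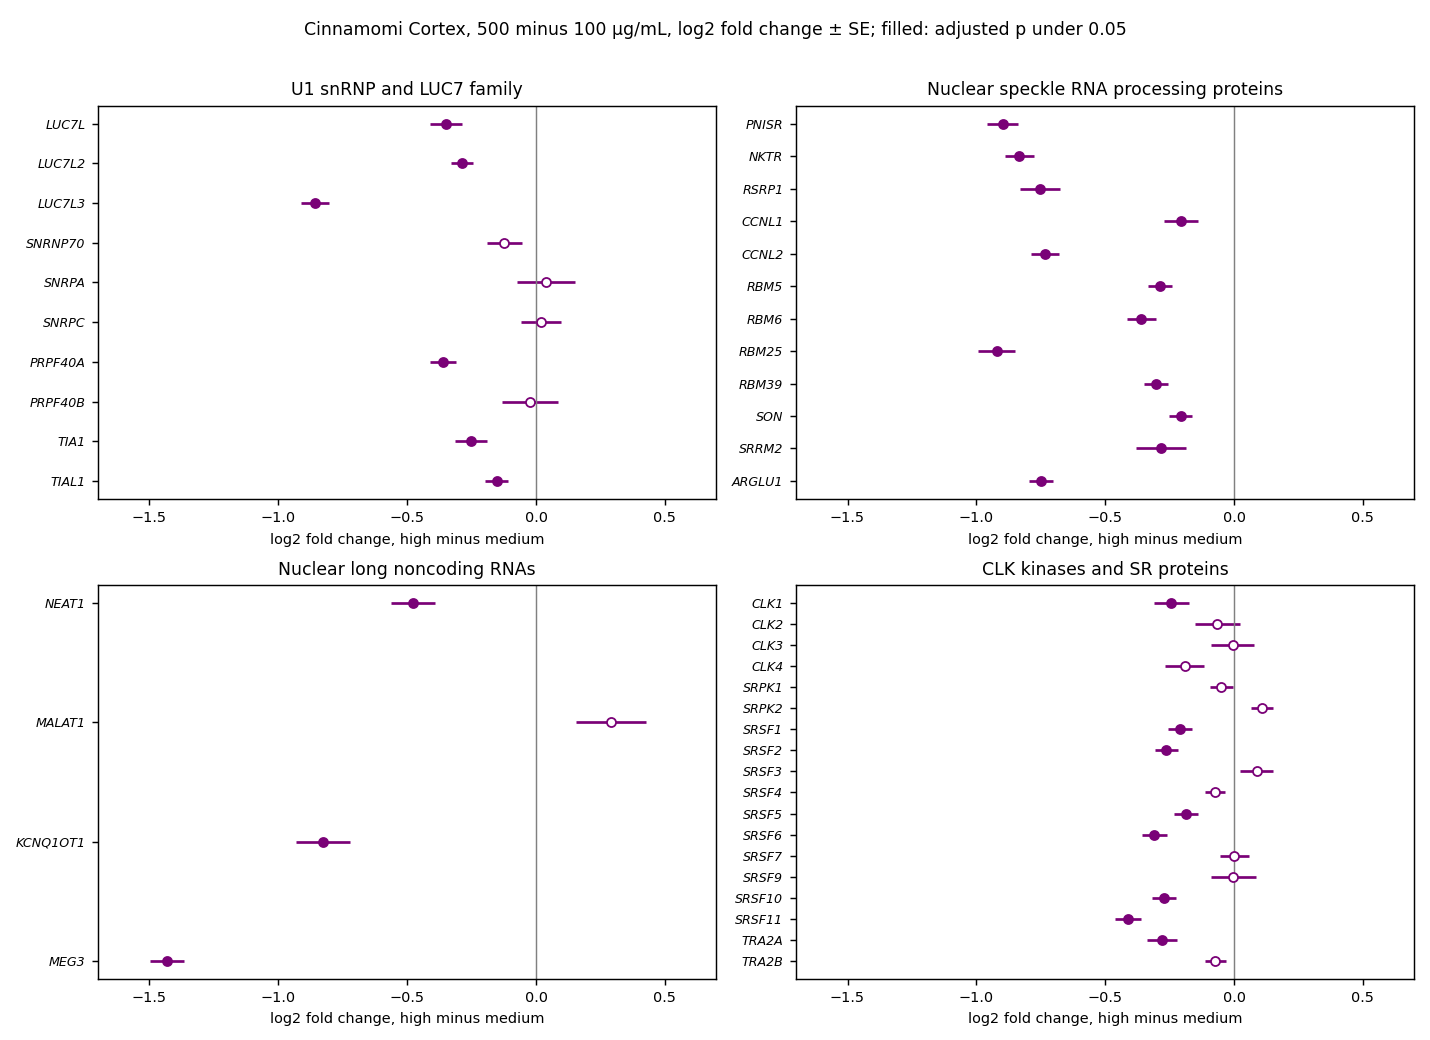
Log2 fold change ± SE (x axis) at 500 against 100 µg/mL of Cinnamomi Cortex for genes of 4 lists (panels), filled where the adjusted p was under 0.05. In the speckle list all 12 points are filled and under 0; LUC7L is one of the points of the first panel.

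Genes of RNA processing were lower with the members at the high dose of Cinnamomi Cortex. The lists were chosen with earlier results of these data known, so their counts are descriptions and not an independent check. Of 12 proteins of nuclear speckles, the nuclear bodies that store splicing factors, all 12 fell, with a median of -0.55, against -0.004 over all genes and a background of 13.0% called lower. RBM25 (-0.92 ± 0.07), PNISR (-0.90 ± 0.06), NKTR (-0.83 ± 0.06) and RSRP1 (-0.75 ± 0.08) were among them. Of 10 genes of the U1 particle and the LUC7 family, 6 fell, LUC7L included, led by LUC7L3 (-0.86 ± 0.05), and none rose. Of 18 genes for CLK kinases and the SR splicing proteins they phosphorylate, 8 fell and none rose. Of 4 long noncoding RNAs kept in the nucleus, 3 fell: MEG3 (-1.43 ± 0.07), KCNQ1OT1 (-0.83 ± 0.11) and NEAT1 (-0.48 ± 0.09), and MALAT1 was at 0.29 ± 0.14. NEAT1, the scaffold of paraspeckles, was at 331 to 406 CPM at the high and 483 to 550 CPM at the medium dose, above 280 to 297 CPM in vehicle. Averaged over the 6 extracts, 7 of 12 speckle genes, 4 of 10 of the U1 list, 2 of 18 CLK and SR genes and 3 of 4 noncoding RNAs fell and 1 CLK or SR gene rose, where 5.05% of all genes fell and 3.65% rose.

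The lists of the members' own pathways gave these counts in that comparison, against 13.0% of all genes called lower and 23.1% in either direction. Of 15 COPII genes 2 were lower, SEC31B and SEC13 (-0.14), and 1 higher. Of 14 oxysterol-binding genes 3 were lower and 1 higher, of 8 poly(A)-binding genes 3 lower and 1 higher, of 13 death receptor genes 2 lower and 3 higher, and of 14 myotubularins none lower and 2 higher. Of 6 lamin and IFFO genes 2 were lower, of 9 orphan nuclear receptors 4 lower, and of 4 tested GABA-A subunits 2 lower. Each of these counts includes the member itself where it passed.

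The genes most like the members over the 25 groups were found by the Pearson correlation of group means of log2(CPM + 1) with the members' mean standardised profile, among 11133 genes with at least 5 CPM. ANO9 was first (r = 0.95), then MICALL2 (0.93), PHYKPL (0.92), ACAP3 (0.91) and GNB3 (0.91). Over the 24 extract groups alone the values were 0.93, 0.89, 0.89, 0.89 and 0.93, and without Cinnamomi Cortex high as well 0.68, 0.79, 0.64, 0.65 and 0.72, so the likeness rests partly on vehicle and that group. ANO9 averaged 18.5 CPM in vehicle and 28.8, 26.9 and 25.7 CPM at the low, medium and high dose over all extracts, with 15.5 CPM in Cinnamomi Cortex high. Within the members, the correlation with their own mean was 0.92 for SEC31B, 0.87 for PABPC1L and OSBPL7, and 0.49 for NR6A1. Over the extract groups without vehicle it was 0.16 for NR6A1 and 0.61 to 0.91 for the other 9. Without Cinnamomi Cortex high as well it was 0.24 for NR6A1, and from 0.35 (LUC7L) to 0.76 (SEC31B) for the others. Each member is part of the mean it was compared with, which raises these values. Groups share depth and set, and these are descriptions.

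Markers of cell types were set beside the fall with Cinnamomi Cortex. Of 5 tested astrocyte markers 1 was lower and 1 higher at its high than at its medium dose, and their summed level was 5763 to 6076 CPM in the Cinnamomi Cortex high libraries, 4900 to 6213 CPM in the other extract libraries and 6019 to 6180 CPM in vehicle. Of 9 fibroblast and smooth muscle markers 4 were lower, and the sums were 4699 to 5481, 5185 to 6979 and 6755 to 6854 CPM in these groups. Of 4 tested neuron markers 3 were lower, with sums of 137 to 146, 125 to 195 and 174 to 176 CPM. Of 3 tested blood and endothelial markers 1 was lower, with sums of 205 to 233, 87.7 to 208 and 159 to 170 CPM. None of the 13 mitochondrially encoded mRNAs was called in either direction. Of all genes, 13.0% were called lower in this comparison and 23.1% in either direction. In bulk RNA, fewer cells of a type and less RNA per cell cannot be told apart. The part of these markers in the members' values was not tested.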

How the data were processed

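RNA of the 60 libraries had been sequenced by the authors as directional, paired-end mRNA libraries on an MGI instrument. Per the submitters' processing notes reads were handled with RSEM 1.3.3, STAR 2.7.3a, FastQC 0.11.9 and Trim Galore 0.6.5 on build hg38 (GRCh38). No source used here gives the annotation release. The values deposited by the authors were RSEM expected counts per gene, of which 90.67% were whole numbers, and they were rounded. The table had 279 columns, of which 219 were not used. The members and lists were chosen with earlier results of these data known.

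Genes were kept by filterByExpr (17237 genes over the 34 medium and high libraries of replicated extracts, 17516 over the 54 libraries of replicated groups and vehicle), and libraries were scaled by TMM. edgeR 4.0.16 (R 4.3.3; quasi-likelihood, a coefficient for each group, robust) tested high against medium dose as a mean over extracts, within each extract and as an interaction, and extracts against each other, with 22 residual degrees of freedom. The common biological variation (coefficient) was 0.0595. Genes were called at a Benjamini-Hochberg adjusted p under 0.05. Fits with vehicle were used as descriptions only (biological coefficient of variation 0.0946). Named genes were the members, up to 5 genes most like them, up to 4 called genes of each list, and close relatives. A few further genes (MALAT1, SEC13, some astrocyte markers and genes overlapping members) were named after their values were seen. Promoters were taken from RefSeq. Python 3.11.15, pandas 2.3.3 and matplotlib 3.10.9 made tables and plots. The tests were checked on simulated data. Alternatives used DESeq2 1.42.0, other scalings, no filter, a replicate block and left-out libraries.

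Deviations of same-numbered libraries at the medium and high dose were compared: all 3 pairs correlated above 0.1 in Cinnamomi Cortex (0.14 to 0.30) and Sagunja-tang (0.21 to 0.42), where the numbers may pair libraries. In each of the other 4 extracts at least 1 pair was lower.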

Additional observations from a re-analysis of the deposited data

Results flagged for a closer look

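For 8 members the change from the medium to the high dose differed between the extracts by edgeR's interaction test with Benjamini-Hochberg adjustment, at adjusted p values of 0.0197 for LUC7L, 0.000322 for SEC31B, 1.03e-06 for PABPC1L, 0.000363 for OSBPL7, 0.0219 for TNFRSF25, 0.0109 for IFFO1, 1.63e-06 for GABRE and 2.15e-07 for SPEG. Over all genes 11.9% passed. With Cinnamomi Cortex each of the 8 was lower at the high dose, and without that extract none of the 8 passed.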

How the results depend on the processing

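The number of members called for high against medium dose as a mean of the 6 extracts was 4, and 3 to 4 when single libraries were left out; it was 0 without Cinnamomi Cortex and 1 (SPEG, higher by 0.14) without Cinnamomi Cortex and Sagunja-tang, alternatives chosen after seeing the data. Under the first of these, SEC31B (0.121), TNFRSF25 (0.0617), IFFO1 (0.0111) and SPEG (0.0651) changed sign, and under the second they were at 0.107, 0.0535, 0.0324 and 0.136. The number whose dose change differed between extracts was 8. It was 5 with all 54 libraries in the fit, 0 without Cinnamomi Cortex and 5 to 8 when single libraries were left out. The number differing among extracts was 9, also 9 within set codes, 6 without Cinnamomi Cortex and 3 with the medium dose alone. Vehicle lay under every high-dose library for 2 members, and for 6 without Cinnamomi Cortex high; over all doses it did so for 2, and for 5 without it. With the replicate block, 4 members were called for the mean of 6 extracts, 8 for the difference between extracts and 10 gene and extract pairs in place of 9. No other call for the members changed with the replicate block. Without one Cinnamomi Cortex library, LUC7L and TNFRSF25 lost the interaction call in 4 cases each and IFFO1 in 2. Leaving out 1 vehicle library left the medians over vehicle at 0.52 to 0.54 (low), 0.43 to 0.44 (medium) and 0.30 to 0.32 (high). Over all genes, 1500 were called for the mean of 6 extracts, against 528 without Cinnamomi Cortex, 484 without Sagunja-tang as well and 730 with 54 libraries. For the difference between extracts 2054 were called, against 215 without Cinnamomi Cortex and 956 with 54 libraries; among extracts 9504, against 6219 within set codes and 1977 at the medium dose alone; and within extracts 4577 gene and extract pairs, against 2669 with 54 libraries. Genes with vehicle under every library numbered 189, 223 and 96 at the low, medium and high dose and 13 over all doses; leaving out 1 vehicle library gave 286 to 318, 349 to 406, 178 to 192 and 32 to 42, and library size alone gave 355 (medium), 238 (high) and 33 (all). Without Cinnamomi Cortex 6851 genes differed among extracts. Without its high-dose libraries, the genes with vehicle under every library numbered 325 at the high dose and 58 over all doses. SEC31B and NR6A1, with as few as 35 and 39 counts in a library, are the least precise members.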
